A study of Mus musculus with 8 samples.

Results

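The genes described here regulate alternative splicing of messenger RNA. They are the 59 rows of the deposited count table whose GO annotation holds the term for regulation of alternative mRNA splicing via the spliceosome, out of 30495 genes in the table. Membership came from the annotation alone and no measured value entered the rule, but the term was taken up with earlier results of these data known, so the direction of the list as a whole is a description. Bulk RNA was sequenced from right ventricles. The mice, females aged 8 weeks, were wild type (WT) or Fpr2-KO, that is, without the formyl peptide receptor gene Fpr2. Controls of both genotypes (WT control, Fpr2-KO control) spent 21 days in normoxia. The treated mice of both genotypes (WT SuHx, Fpr2-KO SuHx) received Sugen, which blocks VEGF receptors, at 20 mg/kg and spent 3 weeks in hypoxia, a common rodent model of pulmonary hypertension in which the right ventricle pumps against a higher pressure. Each of the 4 groups has 2 libraries, 8 in all, named below by the number in their column names (WT control 1 and 2, WT SuHx 1 and 3, and 2 and 3 in both Fpr2-KO groups). The sources used here give neither how the Fpr2 allele was made nor the strain, nor whether the control mice received an injection of vehicle.

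A gene's exons can be joined in more than one way, and which exons are kept depends on proteins that bind the pre-mRNA and help or hinder the spliceosome. SR proteins, rich in serine and arginine, mostly favour exons they bind, hnRNP proteins often oppose them, and families such as MBNL, CELF, RBFOX and QKI give heart and skeletal muscle their own isoforms. During postnatal growth of the mouse heart CELF proteins decline and MBNL proteins act more strongly, and kinases that phosphorylate SR proteins set where these proteins are and what they bind.

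Counts per library ranged from 67965311 to 76292772. Genes of the mitochondrial genome made up 24.2% to 26.1% of counts in controls and 26.4% to 28.2% in SuHx. Fpr2 had 19, 23, 12 and 12 counts in the WT libraries and 0 in each Fpr2-KO library. Heart muscle was present in each library, with a summed level of 8 cardiomyocyte markers between 32585 and 41486 CPM (counts scaled to library size, with library sizes corrected by the TMM method). Libraries stood apart within their groups. The WT control libraries differed by more than 1.5-fold in 11.8% of the 10331 tested genes with a mean of at least 5 CPM, against 2.90% to 4.97% in the other 3 pairs. Fpr2-KO SuHx library 2 held 2828 CPM of 8 atrial markers summed, against 71.4 to 380.0 CPM in the other 7 libraries. In several members WT control library 1 was the one that lay away from the other controls.

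Levels can be compared between genes per length. The authors' deposited FPKM (fragments per kilobase of transcript, scaled to library size) served for this in the 2 WT control libraries. Srsf5, an SR protein, was highest with 81.5 and 71.1 FPKM in libraries 1 and 2. Srsf2, another SR protein, followed with 40.7 and 65.2 FPKM. The hnRNP genes Hnrnpa1 (31.4 and 35.2 FPKM) and Hnrnpl (29.5 and 33.4 FPKM) came next and overlapped each other, while Srsf5 and Srsf2 overlapped neither each other nor these. Sf1, Qk, Srsf1, Ik and Ddx17 followed with mean levels of 19.7 to 23.1 FPKM, and each overlapped the next in that order. Among the muscle families, Mbnl2 (18.3 and 15.3 FPKM) was above Mbnl1 (4.58 and 4.33 FPKM), Rbfox2 (12.8 and 11.3 FPKM) was above Rbfox1 (6.15 and 6.79 FPKM), and Celf1 (9.85 and 11.1 FPKM) was above Celf2 (2.07 and 1.63 FPKM), each without overlap. Factors known from neurons were low, with Nova2 at 0.609 and 0.858 FPKM, Nova1 at 0.459 and 0.490 FPKM, and Celf3, Celf4, Celf5 and Rbfox3 at 0 to 0.0734 FPKM. Of the 59 members, 55 passed the filter on low counts and were tested. Celf3, Rbfox3, Rbm8a2 and Srsf12 did not pass. Celf4, Celf5, Mbnl3, Nova1 and Rbm11 passed with a mean under 5 CPM, which left 50 tested members above that level.

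In each genotype 13 of 55 tested splicing regulators were called lower in SuHx than in control right ventricles and 0 were called higher. Of all tested genes 9.63% were called lower in WT and 5.75% in Fpr2-KO. A mean of at least 5 CPM was reached by 50 of 55 tested members and by 10331 of 19083 tested genes. The share called among all genes at that level was not counted. The background here and below therefore holds a larger share of genes at low levels. The summed level of the 59 members was 3634 and 3950 CPM in WT control, 3041 and 3057 CPM in WT SuHx, 4019 and 4190 CPM in Fpr2-KO control and 2823 and 3098 CPM in Fpr2-KO SuHx. All 4 SuHx libraries lay below all 4 control libraries. Among the 22 genes called in the average of both genotypes, log2 fold changes ran from -0.25 (Qk) to -1.14 (Rbm15). In tissue as a whole, fewer cells of a type that expresses these genes and less of their RNA per cell cannot be told apart. The mitochondrial share of counts moved with the groups as given above, and with those genes left out before scaling the counts of called members given next were again 13, 13 and 22.

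A gene is called where the adjusted p of edgeR's quasi-likelihood test is under 0.05 over all 19083 tested genes. In WT SuHx against WT control, 13 of 55 tested members were called lower and 0 higher, against 9.63% and 10.9% of all tested genes. The median log2 fold change of the 55 was -0.31, with 41 of 55 below 0, and that of all tested genes was 0.00434. The median of the members was -0.07, with 32 of 55 below 0, once WT control library 2 was left out. In Fpr2-KO SuHx against Fpr2-KO control, 13 were called lower and 0 higher, against 5.75% and 4.93% of all genes, with a median of -0.35 and 47 of 55 below 0 (all genes 0.02). With both genotypes averaged, 4 libraries against 4, the count was 22 lower and 0 higher, against 14.1% and 15.5% of all genes (29.6% in either direction), with a median of -0.30 and 45 of 55 below 0 (all genes 0.01). Both WT SuHx libraries lay below both WT controls in 23 members and above them in 6, against 30.5% and 32.5% of all tested genes. In Fpr2-KO these counts were 35 below and 1 above, against 28.1% and 30.9%. In 18 members all 4 SuHx libraries lay below all 4 control libraries and in 0 above them, against 13.6% and 15.6% of all tested genes. DESeq2 also called 0 higher in these 3 comparisons. At an unadjusted p under 0.05 in edgeR there were 20, 25 and 29 members in either direction. These were 36.4%, 45.5% and 52.7% of tested members, against 34.3%, 27.4% and 41.5% of all tested genes. The counts that follow, with a library left out, stand without the share over all tested genes. They do not show a shift particular to the members. Leaving out WT SuHx library 1 gave an averaged count of 14, leaving out WT control library 1 gave 27 and leaving out Fpr2-KO SuHx library 2 gave 16, and Hnrnpl, Srsf5, Mbnl2, Dyrk1a, Ik, Sf1, Rbm4b, Rnps1, Ythdc1, Thrap3, Hnrnpa1 and Rbm15 kept their averaged call whichever single library was left out. Without Fpr2-KO control library 2 the averaged comparison called Rbfox1 higher. The WT count was 5 without WT SuHx library 1 (Hnrnpl, Srsf5, Dyrk1a, Sf1, Thrap3) and 5 without library 3 (Ythdc1 in place of Thrap3). In Fpr2-KO it was 3 without Fpr2-KO control library 3 and 3 without Fpr2-KO SuHx library 2 (Dyrk1a, Sf1 and Thrap3 each time) and 5 without Fpr2-KO SuHx library 3. It was 22 and 21 without WT control libraries 1 and 2, which enter this comparison only through the shared estimate of the spread.

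**Figure D1:**
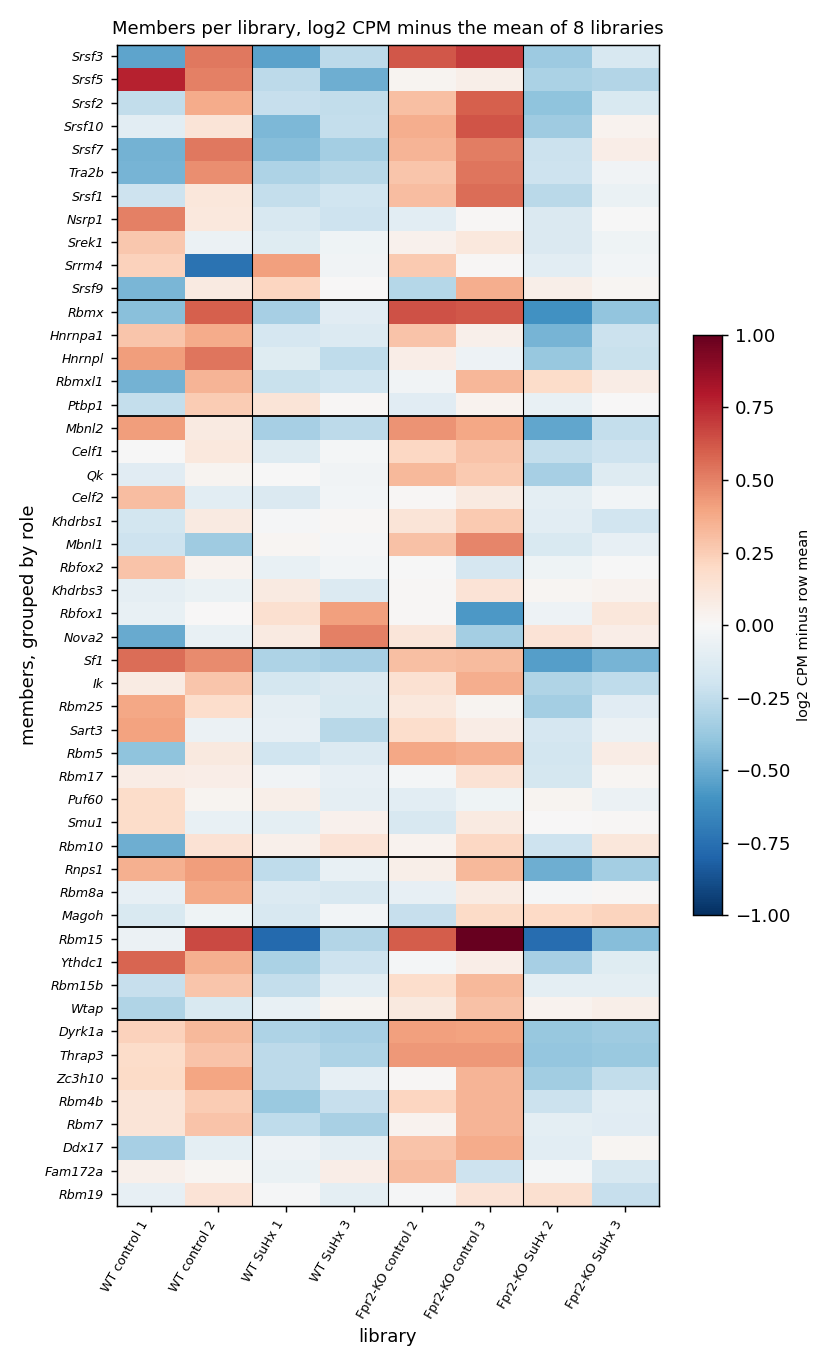
Each row is 1 of the 50 tested members with a mean of at least 5 CPM, grouped by role (SR proteins at the top, then hnRNP, tissue factors, splice site and spliceosome, exon junction, m6A, kinase, helicase and others), and each column is 1 library; colour gives log2 CPM minus the mean of the 8 libraries, cut at 1 and -1. SuHx columns are mostly blue and control columns mostly red, except the column of WT control library 1, which is mixed. In the SR rows WT control library 1 is blue for Srsf3, Srsf7 and Tra2b, as in SuHx. It is also blue for Srsf1, Srsf2, Srsf9 and Srsf10.

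Called lower in both genotypes, whose SuHx comparisons share no library, were Sf1, Dyrk1a, Mbnl2, Thrap3, Rnps1 and Hnrnpa1. These 6 are 46.2% of the 13 calls in each genotype. The share of all tested genes called in both genotypes was not counted. Sf1 (ENSMUSG00000024949, mm10 chromosome 19, 6363690 to 6378030, plus strand) encodes splicing factor 1, which binds the branch point of the intron in the first step of spliceosome assembly. It was at 164 and 155 CPM in WT control, 90.1 and 88.6 in WT SuHx, 138 and 139 in Fpr2-KO control and 76.2 and 81.0 in Fpr2-KO SuHx. Each SuHx library was far below each control library, and the groups did not overlap. The log2 fold change was -0.84 ± 0.09 in WT (edgeR adjusted p = 0.000981) and -0.82 ± 0.09 in Fpr2-KO (edgeR adjusted p = 0.0033), or 1.78-fold and 1.76-fold lower. Dyrk1a (ENSMUSG00000022897, chromosome 16, 94570010 to 94695067, plus strand) encodes a kinase that phosphorylates splicing factors among other targets. Its levels were 71.1 and 75.9 CPM in WT control, 48.7 and 48.1 in WT SuHx, 80.4 and 80.1 in Fpr2-KO control and 46.6 and 47.3 in Fpr2-KO SuHx. The 4 SuHx libraries lay close together, all under the controls, and the changes were -0.60 ± 0.09 in WT (edgeR adjusted p = 0.00331) and -0.77 ± 0.09 in Fpr2-KO (edgeR adjusted p = 0.00385). Sf1 and Dyrk1a kept their calls in both genotypes whichever single library was left out.

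Mbnl2 (ENSMUSG00000022139, chromosome 14, 120275669 to 120431697, plus strand) encodes a muscleblind protein that promotes adult isoforms. It had 249 and 199 CPM in WT control, 148 and 156 in WT SuHx, 255 and 244 in Fpr2-KO control and 130.5 and 158 in Fpr2-KO SuHx. SuHx and control libraries did not overlap. The log2 fold change was -0.56 ± 0.13 in WT (edgeR adjusted p = 0.0203) and -0.79 ± 0.13 in Fpr2-KO (edgeR adjusted p = 0.0119). Without WT control library 1 the WT call was lost. Thrap3 (ENSMUSG00000043962, chromosome 4, 126164082 to 126202760, minus strand) encodes an SR-related protein of nuclear mRNA-protein complexes that takes part in splicing and in transcription. It was at 106 and 114 CPM in WT control, 78.1 and 75.4 in WT SuHx, 126 and 126 in Fpr2-KO control and 71.7 and 72.5 in Fpr2-KO SuHx. The change was -0.52 ± 0.09 in WT (edgeR adjusted p = 0.00548) and -0.81 ± 0.09 in Fpr2-KO (edgeR adjusted p = 0.00338), again with no overlap. Rnps1 (chromosome 17, 24414565 to 24425901, plus strand), a protein deposited near exon junctions, fell by 0.54 in WT (edgeR adjusted p = 0.0163) and by 0.61 in Fpr2-KO (edgeR adjusted p = 0.0206) on the log2 scale. Hnrnpa1, an hnRNP protein that often represses exon inclusion, fell by 0.48 in WT (edgeR adjusted p = 0.0259) and by 0.51 in Fpr2-KO (edgeR adjusted p = 0.0352). The levels of both per library are given with their groups.

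**Figure D2:**
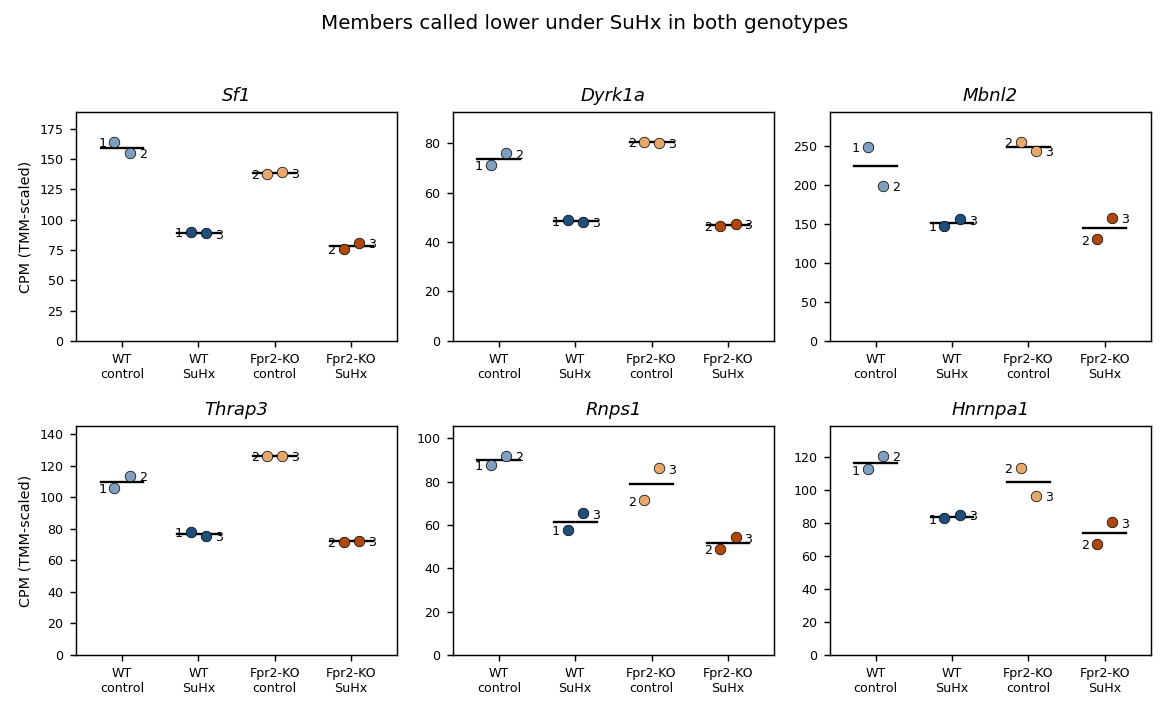
CPM (vertical axis, from 0) of the 6 members called lower in both genotypes, by group; each point is 1 library with its number, and the bar is the mean of the 2 libraries. In Sf1 the SuHx libraries sit between 76.2 and 90.1 CPM and the control libraries between 138 and 164 CPM.

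The promoters of the 4 members of this set with the largest averaged change are shown because these genes moved together; each is 250 bases before to 50 bases after a start in RefSeq (GRCm38.p6, the assembly of mm10), read 5′ to 3′ on the strand of the gene. Capitals mark a match, on either strand, to a CCAAT box (CCAAT), a GC box (GGGCGG), an E-box (CACGTG) or ACGTG, the core of hypoxia response elements, which lies inside CACGTG.
Sf1, chr19:6363440-6363739, plus strand: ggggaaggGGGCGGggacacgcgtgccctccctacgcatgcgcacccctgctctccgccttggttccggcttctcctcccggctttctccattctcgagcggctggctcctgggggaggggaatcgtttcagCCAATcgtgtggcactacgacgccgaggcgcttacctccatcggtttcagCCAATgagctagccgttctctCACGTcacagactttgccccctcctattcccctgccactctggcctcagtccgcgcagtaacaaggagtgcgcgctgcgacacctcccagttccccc
Dyrk1a, chr16:94569956-94570255, plus strand, 1 of 3 starts in the table: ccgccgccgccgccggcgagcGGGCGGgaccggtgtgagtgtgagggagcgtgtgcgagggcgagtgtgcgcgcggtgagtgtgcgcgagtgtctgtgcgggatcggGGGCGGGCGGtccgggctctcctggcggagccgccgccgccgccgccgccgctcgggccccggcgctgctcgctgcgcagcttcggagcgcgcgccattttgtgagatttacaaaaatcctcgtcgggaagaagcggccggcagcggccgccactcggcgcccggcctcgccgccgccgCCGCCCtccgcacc
Mbnl2, chr14:120275419-120275718, plus strand: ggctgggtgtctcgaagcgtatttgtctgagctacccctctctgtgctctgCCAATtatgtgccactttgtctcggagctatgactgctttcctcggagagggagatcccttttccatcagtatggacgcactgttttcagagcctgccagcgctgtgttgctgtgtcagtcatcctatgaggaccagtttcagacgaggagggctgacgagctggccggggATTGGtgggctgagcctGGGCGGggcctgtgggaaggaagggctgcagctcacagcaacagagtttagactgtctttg
Thrap3, chr4:126202661-126202960, minus strand: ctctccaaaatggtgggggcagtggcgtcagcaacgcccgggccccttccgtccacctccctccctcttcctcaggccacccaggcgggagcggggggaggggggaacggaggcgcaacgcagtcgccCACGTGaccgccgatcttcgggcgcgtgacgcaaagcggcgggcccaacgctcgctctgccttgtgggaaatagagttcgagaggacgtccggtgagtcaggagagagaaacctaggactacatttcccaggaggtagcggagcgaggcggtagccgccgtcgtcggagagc
Of the 59 members, 48 had a promoter in the RefSeq table, and 31 of these (64.6%) held GGGCGG, against 35.6% of the 32817 promoters of the same length. ACGTG was in 17 (35.4%, all 19.6%), CCAAT in 19 (39.6%, all 37.4%), TATAAA in 7 (14.6%, all 13.6%), CCGGAAG in 7 (14.6%, all 8.86%), CACGTG in 5 (10.4%, all 7.15%), GAANNTTC in 4 (8.33%, all 7.86%), and the NRF1 motif and TGACGTCA in 0 (all 0.966% and 1.79%), counting both strands. Base composition differs as well, with a median GC content of 62.2% in members and 52.7% in all promoters. Of the members 55 of 59 passed the filter on low counts, and the shares among promoters of tested genes alone were not counted. Among members called lower in the averaged comparison, 15 of 20 held GGGCGG, 10 of 20 CCAAT and 6 of 20 ACGTG, and among the other tested members 15, 7 and 11 of 25. These matches are letters in a window of 300 bases and show neither binding nor use.

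Of 11 tested SR and SR-like members, 4 were called lower and 0 higher in the averaged comparison, with a median of -0.45. All tested genes had 14.1% called lower and 15.5% higher in that comparison, which is also the background of the counts by role that follow. In WT 1 of the 11 was called lower and in Fpr2-KO 2, against 9.63% and 5.75% of all tested genes. Srsf5 (ENSMUSG00000021134, chromosome 12, 80945504 to 80950507, plus strand) had 369.6 and 308 CPM in WT control, 180.2 and 155 in WT SuHx, 221 and 225 in Fpr2-KO control and 174 and 177 in Fpr2-KO SuHx. SuHx libraries were low in both genotypes, and Fpr2-KO controls lay between the WT controls and the SuHx libraries without overlapping either. The change in WT was -1.02 ± 0.12 (edgeR adjusted p = 0.00125), and that in Fpr2-KO, -0.35 ± 0.12, was not called (edgeR adjusted p = 0.0928). Srsf1, the SR protein first purified as a splicing factor and needed for postnatal remodelling of the mouse heart, was at 113 and 141 CPM in WT control, 111 and 113 in WT SuHx, 161 and 192 in Fpr2-KO control and 108 and 124 in Fpr2-KO SuHx. Here the WT groups overlapped and the Fpr2-KO groups did not, with -0.18 ± 0.14 in WT (not called) and -0.61 ± 0.14 in Fpr2-KO (edgeR adjusted p = 0.0306). The WT difference was -0.33 without WT control library 1 and -0.0043 without library 2. Srsf10, an SR protein that turns into a splicing repressor when dephosphorylated, had 56.3 and 66.4 CPM in WT control, 44.2 and 51.3 in WT SuHx, 77.7 and 93.7 in Fpr2-KO control and 47.3 and 61.9 in Fpr2-KO SuHx. Its SuHx libraries lay below the controls in each genotype, and its change was -0.36 ± 0.16 in WT (not called) and -0.65 ± 0.16 in Fpr2-KO (edgeR adjusted p = 0.0399). Of the other SR members, Nsrp1 (-0.26 ± 0.13), Srek1 (-0.18 ± 0.09), Srsf9 (0.12 ± 0.18) and Srrm4 (0.09 ± 0.21), a factor of neural microexons, were not called in the averaged comparison. Srsf2 was called on average (-0.53 ± 0.14, edgeR adjusted p = 0.022), and Srsf3, Srsf7 and Tra2b were not. Their values follow with the controls, because WT control library 1 differs in them.

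Of 5 tested hnRNP members, 3 were called lower in the averaged comparison, with a median of -0.49. Hnrnpl (ENSMUSG00000015165, chromosome 7, 28808541 to 28822266, plus strand), which binds CA-rich RNA, was at 199.8 and 216 CPM in WT control, 138 and 126 in WT SuHx, 156 and 144 in Fpr2-KO control and 115 and 128 in Fpr2-KO SuHx. The groups of each genotype did not overlap, with -0.66 ± 0.10 in WT (edgeR adjusted p = 0.0039) and -0.31 ± 0.10 in Fpr2-KO, not called (edgeR adjusted p = 0.0898). Hnrnpa1 (chromosome 15, 103240432 to 103246692, plus strand) had 112 and 120.4 CPM in WT control, 82.6 and 84.6 in WT SuHx, 113 and 96.2 in Fpr2-KO control and 67.3 and 80.3 in Fpr2-KO SuHx. It has processed pseudogenes, so some of its reads may have been split. Ptbp1, the polypyrimidine tract protein that represses neural and muscle exons, lay between 41.3 and 58.4 CPM in all 8 libraries, and its averaged difference was 0.02 ± 0.11 with a 95% interval of -0.23 to 0.27. Rbmxl1 (-0.12 ± 0.17) was not called, and it is a near copy of Rbmx (-0.76 ± 0.20, called), so reads of either may have been counted for the other. The averaged call of Rbmx was kept without either WT control library (-0.97 without library 1, -0.46 without library 2), and it was lost without any 1 of the other 6 libraries and with no filter on low counts.

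The group named tissue-type factors is loosely drawn and not limited to genes of 1 tissue. It held 14 tested members, 4 of them called lower and 0 higher in the averaged comparison (all tested genes 14.1% and 15.5%). Their median was -0.15, with 4 of 14 above 0. In WT 7 of the 14 were above 0. Qk (ENSMUSG00000062078, chromosome 17, 10202601 to 10319854, minus strand) encodes quaking, an RNA-binding protein that shapes splicing of sarcomere genes. Its levels were 333 and 366 CPM in WT control, 359 and 351 in WT SuHx, 451 and 431 in Fpr2-KO control and 286 and 329 in Fpr2-KO SuHx. The 4 WT libraries overlapped, with a difference of 0.02 ± 0.10, whereas in Fpr2-KO both SuHx libraries lay below both controls (-0.52 ± 0.10, edgeR adjusted p = 0.0186). Celf1, which favours fetal isoforms and opposes MBNL proteins, was at 94.6 and 102 CPM in WT control, 86.6 and 93.3 in WT SuHx, 109 and 116 in Fpr2-KO control and 80.6 and 82.2 in Fpr2-KO SuHx. SuHx was below control in each genotype, by a small margin in WT. Its change was -0.13 ± 0.09 in WT (not called) and -0.47 ± 0.09 in Fpr2-KO (edgeR adjusted p = 0.0205). Nova1, a neural factor at a low level here, went from 4.59 and 4.68 to 1.807 and 2.196 CPM in WT (-1.21 ± 0.33, edgeR adjusted p = 0.0316). The RBFOX genes, whose proteins bind UGCAUG and act on many heart exons, did not pass the test in the fit of all 8 libraries. The averaged difference was -0.08 ± 0.08 for Rbfox2 (95% interval -0.26 to 0.10) and 0.30 ± 0.13 for Rbfox1 (95% interval 0.01 to 0.60), which was called higher without Fpr2-KO control library 2. Celf2 (-0.16 ± 0.10), Khdrbs1 (-0.15 ± 0.08), Khdrbs3 (0.00 ± 0.08) and Nova2 (0.39 ± 0.17) were not called either.

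Among 9 tested proteins of splice sites and the spliceosome, 3 were called lower, with a median of -0.23. They were Sf1, Ik and Rbm25. Ik, a protein of the spliceosome before its activation, had 74.2 and 84.9 CPM in WT control, 61.8 and 63.2 in WT SuHx, 77.6 and 89.8 in Fpr2-KO control and 56.8 and 58.7 in Fpr2-KO SuHx. SuHx lay below control in each genotype, with -0.35 ± 0.11 in WT (edgeR adjusted p = 0.0573, not called), -0.54 ± 0.11 in Fpr2-KO (edgeR adjusted p = 0.0224) and -0.44 ± 0.08 on average (edgeR adjusted p = 0.00416). Smu1, the partner of Ik in the spliceosome, lay between 32.8 and 41.5 CPM in the 8 libraries and its averaged difference was -0.02 ± 0.09 (95% interval -0.23 to 0.19); 19.5% of its exon length overlaps Dnaja1 on the other strand. Rbm25, which binds U1 snRNP, was at 106 and 91.5 CPM in WT control, 76.2 and 73.2 in WT SuHx, 87.5 and 82.8 in Fpr2-KO control and 64.1 and 74.9 in Fpr2-KO SuHx. Each genotype's groups were apart, and the change was called in WT (-0.40 ± 0.12, edgeR adjusted p = 0.039) and not in Fpr2-KO (-0.29 ± 0.12). Not called in the averaged comparison were Rbm5 (-0.23 ± 0.11), Rbm10 (0.03 ± 0.14), Rbm17 (-0.13 ± 0.08), Puf60 (-0.03 ± 0.07) and Sart3 (-0.30 ± 0.12).

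Of the exon junction proteins, Rnps1 had 87.9 and 91.9 CPM in WT control, 57.8 and 65.4 in WT SuHx, 71.5 and 86.3 in Fpr2-KO control and 49.0 and 54.4 in Fpr2-KO SuHx, with no overlap within a genotype. The core subunits Magoh (0.11 ± 0.12) and Rbm8a (-0.16 ± 0.11) were not called, and each has a near-identical copy that could take some of its reads. Among 4 members tied to m6A, the methyl mark on adenosine in mRNA, 2 were called lower. Rbm15 (ENSMUSG00000048109, chromosome 3, 107325421 to 107333673, minus strand), which guides the methyltransferase to its sites, was at 15.6 and 25.5 CPM in WT control, 9.46 and 13.2 in WT SuHx, 24.6 and 33.2 in Fpr2-KO control and 9.55 and 12.1 in Fpr2-KO SuHx. Every SuHx library was below every control library. The difference was -0.86 ± 0.28 in WT (edgeR adjusted p = 0.0617, not called), -1.42 ± 0.28 in Fpr2-KO (edgeR adjusted p = 0.0206) and -1.14 ± 0.20 on average (edgeR adjusted p = 0.00408). Without WT control library 1 the WT difference was -1.17 ± 0.25 (edgeR adjusted p = 0.0198, called), and without library 2 it was -0.45 ± 0.25 (edgeR adjusted p = 0.251). Ythdc1, the nuclear reader of m6A that recruits SR proteins, had 73.8 and 62.8 CPM in WT control, 39.4 and 42.5 in WT SuHx, 48.6 and 51.4 in Fpr2-KO control and 39.2 and 45.2 in Fpr2-KO SuHx. It fell by 0.74 on the log2 scale in WT (edgeR adjusted p = 0.00479), and the Fpr2-KO difference of -0.25 ± 0.12 was not called. Rbm15b (-0.28 ± 0.12) and Wtap (0.02 ± 0.08), both of the methyltransferase complex, were not called.

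The remaining 9 tested members include kinases, helicases and other factors, and 5 of them were called lower, with a median of -0.46. Besides Dyrk1a and Thrap3 these were Rbm4b, Rbm7 and Zc3h10. Rbm7, a subunit of the complex that brings nuclear RNA to the exosome, was at 28.5 and 31.8 CPM in WT control, 21.9 and 20.8 in WT SuHx, 26.7 and 33.1 in Fpr2-KO control and 24.4 and 24.1 in Fpr2-KO SuHx. Its groups did not overlap within a genotype, and the change was called in WT (-0.50 ± 0.13, edgeR adjusted p = 0.0299). Rbm4b had 22.6 and 24.6 CPM in WT control, 16.0 and 17.6 in WT SuHx, 23.9 and 26.2 in Fpr2-KO control and 17.8 and 19.2 in Fpr2-KO SuHx, a change of -0.46 ± 0.09 on average (edgeR adjusted p = 0.00513). It has the paralog Rbm4, and 30.8% of its exon length overlaps a gene on the other strand. Zc3h10 had 9.86 and 11.3 CPM in WT control, 7.23 and 8.16 in WT SuHx, 8.73 and 10.95 in Fpr2-KO control and 6.81 and 7.29 in Fpr2-KO SuHx. Its groups did not overlap within a genotype, and it was called on average alone (-0.47 ± 0.13, edgeR adjusted p = 0.0229). Fam172a (-0.10 ± 0.13) and Rbm19 (-0.08 ± 0.13) were not called.

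Set side by side, 37 of 55 tested members were below 0 in both genotypes (67.3%, all tested genes 34.5%) and 4 were above 0 in both. The sign was the same in both genotypes in 74.5% of tested members and in 71.1% of all tested genes. In 19 members both SuHx libraries lay below both controls in each genotype, against 16.7% of all tested genes. They lay above in 0 members, and the share of all tested genes that did so was not counted. Hnrnpl, Nova1, Rbm25, Rbm4b, Rbm7, Srsf5 and Ythdc1 were called in WT alone, and Celf1, Ik, Mbnl1, Qk, Rbm15, Srsf1 and Srsf10 in Fpr2-KO alone. Shares of all tested genes called in 1 genotype alone were not counted. A call in 1 genotype does not show that the genotypes differ, and the test of that difference is the interaction given below. The plot of responses by genotype shows that most pairs of points lie on the same side of 0.

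**Figure D3:**
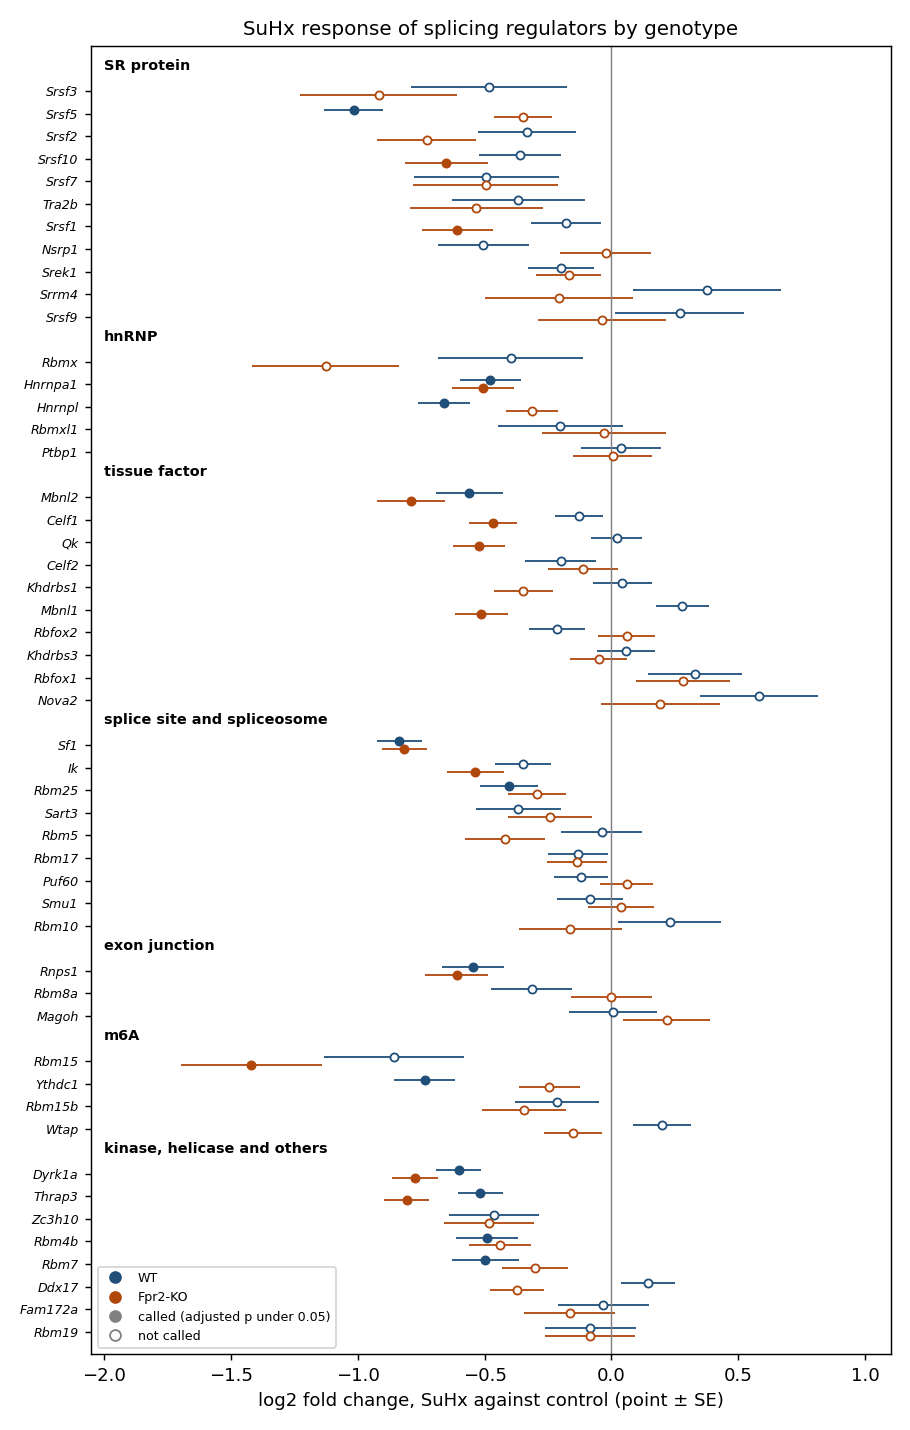
Log2 fold change of SuHx against control (horizontal axis, point ± SE from the fit over 8 libraries) for the 50 tested members with a mean of at least 5 CPM, in WT (blue) and Fpr2-KO (orange), by role; filled points are called at an adjusted p under 0.05. Filled points are all left of 0. Mbnl1, Ddx17, Qk, Wtap, Khdrbs1, Khdrbs3, Srsf9, Srrm4 and Rbm10 have their WT point right of 0 and their Fpr2-KO point left of it.

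In control mice, 3 of 55 tested members were called between genotypes. Mbnl1 and Ddx17 were higher in Fpr2-KO and Srsf5 was lower, against 1.43% of all tested genes called higher, 1.18% lower and 2.6% in either direction. Both Fpr2-KO libraries lay above both WT libraries in 15 members and below them in 10, against 23.5% and 24.3% of all tested genes. Mbnl1 (ENSMUSG00000027763, chromosome 3, 60472830 to 60629750, plus strand), the main muscleblind protein of adult muscle, was at 97.6 and 88.0 CPM in WT control and 138 and 158 in Fpr2-KO control. Both Fpr2-KO libraries were above both WT libraries, by 0.67 ± 0.10 on the log2 scale (edgeR adjusted p = 0.0225). Ddx17, an RNA helicase of splicing and microRNA processing, had 154 and 181 CPM in WT control and 235 and 251 in Fpr2-KO control (0.54 ± 0.11, edgeR adjusted p = 0.0376). Srsf5, with the values above, differed by -0.60 ± 0.12 (edgeR adjusted p = 0.0363). For the counts of called members with a library left out, shares over all tested genes are not given. The count was 0 without Fpr2-KO control library 2, 0 without Fpr2-KO control library 3 and 0 without WT SuHx library 1. It was 1 without WT control library 1, WT SuHx library 3, Fpr2-KO SuHx library 2 or Fpr2-KO SuHx library 3, and 13 without WT control library 2.

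Between the WT control libraries, 9 of 50 members (18%) differed by more than 1.5-fold, and 5 of these were among the 11 tested SR members: Srsf2, Srsf3, Srsf7, Tra2b and Srrm4. No member differed so much between the libraries of WT SuHx or of Fpr2-KO SuHx, and 1 did in Fpr2-KO control. Srsf3 (ENSMUSG00000071172, chromosome 17, 29032628 to 29043373, plus strand), a small SR protein that also exports mRNA and that mouse hearts need for contraction, had 81.0 and 168 CPM in WT control, 80.8 and 97.6 in WT SuHx, 179 and 189.8 in Fpr2-KO control and 90.8 and 105 in Fpr2-KO SuHx. WT control library 1 lay among the SuHx libraries and WT control library 2 near the Fpr2-KO controls. The WT change was -0.48 ± 0.31 (edgeR adjusted p = 0.32); without WT control library 1 it was -0.91 ± 0.14 (edgeR adjusted p = 0.00655) and without WT control library 2 it was 0.14 ± 0.15 (edgeR adjusted p = 0.541). Srsf7, a close relative of Srsf3, was at 42.0 and 83.7 CPM in WT control, 43.3 and 46.0 in WT SuHx, 73.6 and 82.9 in Fpr2-KO control and 50.2 and 60.8 in Fpr2-KO SuHx. Tra2b, which binds GAA repeats in exons, had 40.0 and 76.2, 44.6 and 45.6, 66.9 and 79.9 and 47.8 and 53.7 CPM in the same order of groups. Srsf2, an SR protein of the nuclear speckles, had 137 and 209, 138 and 137, 199.96 and 244.65, and 122 and 146 CPM. Each of these 3 showed the pattern of Srsf3, with WT control library 1 at the level of SuHx. Rbmx, the X-linked hnRNP G, was at 34.2 and 69.0 CPM in WT control, 36.2 and 42.2 in WT SuHx, 70.9 and 70.2 in Fpr2-KO control and 30.0 and 34.6 in Fpr2-KO SuHx, again in that pattern. Srsf5 did not show it, since WT control library 1 held the highest of its 8 values.

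**Figure D4:**
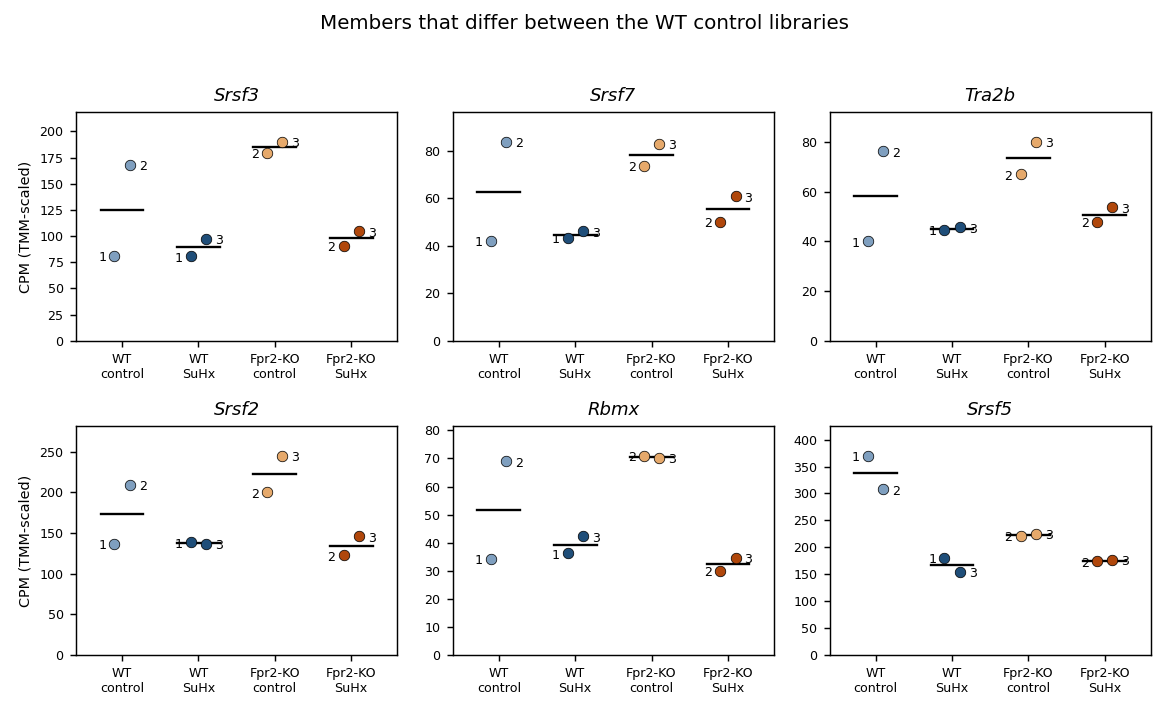
CPM (vertical axis, from 0) of Srsf3, Srsf7, Tra2b, Srsf2, Rbmx and Srsf5 by group; each point is 1 library with its number, and the bar is the mean of the 2 libraries. In the first 5 panels WT control library 1 lies at the level of the SuHx libraries and library 2 near the Fpr2-KO controls, and in Srsf5 both WT controls are the highest points.

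Without WT control library 1 the WT comparison called 17 members, 16 lower and 1 higher. Srsf2, Srsf3, Srsf7, Tra2b, Rbmx, Rbm15 and Rbm8a were added as lower and Srrm4 as higher, and Hnrnpa1, Mbnl2, Nova1 and Rbm25 were lost, so 9 of the 13 calls were shared with the fit of all libraries. The same comparison without WT control library 2 called 12 members lower and 1, Rbm10, higher. The lone WT control library is in each case assumed to vary like the other groups. Calls over all tested genes in these fits are not given, so the counts do not show a shift particular to the members. The Fpr2-KO changes of these genes were almost the same with and without WT control library 1, but their standard errors fell, for Srsf3 from 0.31 to 0.12 around changes of -0.92 and -0.92, and Srsf2, Srsf3, Srsf7, Tra2b and Rbmx were then called lower in Fpr2-KO SuHx. Without WT control library 2, Srsf1, Srsf2, Srsf3, Srsf7, Tra2b and Rbmx were called higher in Fpr2-KO control than in WT control, for Srsf3 by 1.20 ± 0.15 (edgeR adjusted p = 0.00346), and without WT control library 1 the same difference was 0.13 ± 0.15 (edgeR adjusted p = 0.769). The 14 heat shock genes summed to 4943 CPM in WT control library 1 and 6284 in library 2, 4156 and 4526 in WT SuHx, 6463 and 8517 in Fpr2-KO control and 4252 and 4842 in Fpr2-KO SuHx. Their part in the SR values was not tested.

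In SuHx mice no member was called between genotypes. Of 55 tested members edgeR called 0 between Fpr2-KO SuHx and WT SuHx (all tested genes 0%), 0 had an unadjusted p under 0.05 (664 of 19083 genes did), and DESeq2 called 0 members and 17 genes. The summed level of the members was 3041 and 3057 CPM in WT SuHx and 2823 and 3098 CPM in Fpr2-KO SuHx, which overlap. For Sf1 the difference between genotypes was -0.19 ± 0.09 (95% interval -0.39 to 0.01), for Dyrk1a -0.05 ± 0.09 (-0.25 to 0.16), for Thrap3 -0.09 ± 0.09 (-0.29 to 0.11) and for Mbnl2 -0.07 ± 0.13 (-0.38 to 0.23). Intervals were wider for Srsf3 (0.13 ± 0.31, -0.59 to 0.86) and Rbm15 (-0.07 ± 0.28, -0.70 to 0.56), so differences of that size could not be seen here.

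The interaction asks whether SuHx acted differently in Fpr2-KO than in WT. edgeR called 0 of 55 tested members (all tested genes 0%), 10 had an unadjusted p under 0.05 (2417 of 19083 genes did), and DESeq2 called 2 members, Mbnl1 and Srsf5, among 512 genes. Mbnl1 had 97.6 and 88.0 CPM in WT control, 114 and 112 in WT SuHx, 138 and 158 in Fpr2-KO control and 101 and 106 in Fpr2-KO SuHx. SuHx libraries were above control in WT (0.28 ± 0.10, not called) and below it in Fpr2-KO (-0.51 ± 0.10, edgeR adjusted p = 0.0208), without overlap. The interaction was -0.79 ± 0.15 (edgeR adjusted p = 0.118). Ddx17 had 154 and 181 CPM in WT control, 187 and 182 in WT SuHx, 235 and 251 in Fpr2-KO control and 179.7 and 196 in Fpr2-KO SuHx, with -0.51 ± 0.15 (edgeR adjusted p = 0.229). The largest positive value among members above 5 CPM was that of Srsf5, 0.67 ± 0.16 (edgeR adjusted p = 0.187), and Qk was at -0.54 ± 0.14 (edgeR adjusted p = 0.2). In each of these genes the genotypes were farther apart in control than in SuHx. Shares over all tested genes are not given for the fits with a library left out. Without WT control library 2, 4 members were called (Mbnl1, Srsf5, Srsf3 and Rbmx), and without WT control library 1, 0.

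**Figure D5:**
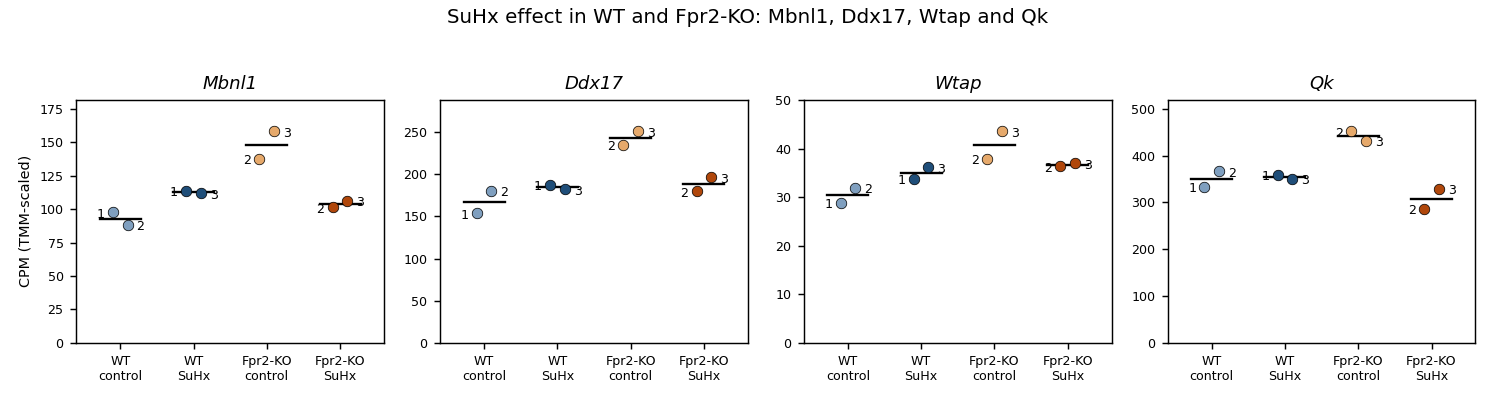
CPM (vertical axis, from 0) of Mbnl1, Ddx17, Wtap and Qk by group; each point is 1 library with its number, and the bar is the mean of the 2 libraries. In Mbnl1 the Fpr2-KO controls, at 138 and 158 CPM, are the highest points, and the other 6 libraries lie between 88.0 and 114 CPM.

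Splicing genes outside the term were examined with the averaged comparison, from lists drawn up with earlier results of these data known. Their counts stand against 14.1% of all tested genes called lower and 15.5% higher. Other SR-like proteins had 6 of 11 called lower and 0 higher, with the speckle protein Son at -0.61 ± 0.08 and Srrm1 at -0.53 ± 0.08. Other hnRNP genes had 8 of 20 lower and 0 higher, among them Ptbp2 (-0.89 ± 0.09) and Hnrnpu (-0.68 ± 0.13). Further RNA-binding regulators had 14 of 27 lower and 0 higher, led by the cold-inducible genes Cirbp (-1.24 ± 0.10) and Rbm3 (-0.98 ± 0.12). Of other genes listed with the tissue-type factors, a loosely drawn group, 3 of 11 were lower and 1 higher. Among them Rbm24, a muscle splicing factor, was at -0.39 ± 0.11 and Tia1 at 0.51 ± 0.08. The core spliceosome had 20 of 72 lower and 3 higher and a median of -0.12, with the branch point protein Sf3b1 at -0.83 ± 0.10 and Ppil1 at 1.08 ± 0.15. Exon junction and nonsense-mediated decay genes had 7 of 15 lower and 0 higher, with the kinase Smg1 at -0.998 ± 0.106.

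Kinases and phosphatases of splicing went both ways, 5 of 15 lower and 3 higher, against 14.1% and 15.5% of all tested genes. Cdk12 (-0.79 ± 0.14) and Cdk13 (-0.71 ± 0.08), which phosphorylate RNA polymerase II, fell, and Srpk2 (0.65 ± 0.09), an SR protein kinase, and Dyrk1b (0.78 ± 0.13), a relative of Dyrk1a, rose. Nuclear long RNAs and paraspeckle genes had 2 of 7 lower, including Malat1 at -1.02 ± 0.14. Transcripts that cardiac splicing factors act on had 8 of 20 lower and 4 higher, with Fn1 at 0.78 ± 0.12; these are levels of whole genes and say nothing of their isoforms. Clock genes had 6 of 17 lower and 4 higher, cell cycle genes 13 of 15 higher and 0 lower, and heat shock genes 5 of 14 lower and 0 higher. Cell type markers moved with treatment too. Endothelial markers had 4 of 7 higher and 0 lower (summed level 612 to 668 CPM in controls and 747 to 978 in SuHx), mural markers 4 of 7 higher (876 to 1036 and 1275 to 1465 CPM), macrophage markers 4 of 7 higher (89.9 to 152 and 156 to 195 CPM) and lymphocyte markers 3 of 7 higher (0.508 to 3.08 and 2.47 to 4.81 CPM). Cardiomyocyte markers had 2 of 8 higher and 2 lower (32752 to 41246 and 32585 to 41486 CPM), fibroblast markers 2 of 7 higher and 2 lower (2551 to 3159 and 2199 to 2986 CPM), and atrial markers 0 of 8 called. The part of these cells in the members' changes was not tested.

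Many SR and hnRNP genes are known to control their own level by splicing, through exons that carry a stop codon and send the transcript to nonsense-mediated decay. The GENCODE M21 annotation of this assembly was searched for such transcripts, and 29 of the 55 tested members (52.7%) have an annotated transcript of the nonsense-mediated decay type, against 26.7% of 14940 tested protein-coding genes. The share was 9 of 12 among SR members and 0 of 4 among exon junction members. An annotated retained-intron transcript was found for 38 of 55 (69.1%), against 54.9%. Tested members also have more annotated transcripts, a median of 8 against 5 in tested protein-coding genes. The shares were not adjusted for this. The counts are per gene, so they do not show which transcript fell, nor whether splicing of any exon changed. Overlap also limits single genes. Exons of 19 members overlap a gene on the other strand, with the largest shares in Nova2 (31.7% of exon length), Rbm4b (30.8%), Smu1 (19.5%), Srsf2 (15.6%), Rbm19 (14.6%) and Zc3h10 (11.6%), and those of Nova1, Rbm15b and Ythdc1 overlap a gene on the same strand. The strand setting of the counting is not given in the sources used here, so reads of such pairs cannot be told apart.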

How the data were processed

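Right ventricles of 4 groups with 2 libraries each were sequenced. Per the submitters' processing notes, reads were handled on mm10 with HISAT2 2.2.1, StringTie 2.1.6 and cutadapt 1.9, and edgeR and DESeq2 are named too. Roles, annotation release and strand setting are not stated there. The authors deposited a count per gene and library, and FPKM values, per the file headers. FPKM was used from the WT control columns only, which match titled samples, and 6 value columns were not used. Other columns match a group but no single titled sample, and the labels' genotype field of 3 Fpr2-KO samples names other knockouts, so titles were followed. No label says whether the libraries come from separate mice. The p-values therefore reflect only how far these libraries vary, and that variation may be technical. The libraries of each group differed beyond sampling noise (chi-square per degree of freedom 23.6 to 76.8).

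The main test on counts was that of edgeR 4.0.16 under R 4.3.3 (filterByExpr, TMM, robust quasi-likelihood fit of 4 group means with 4 residual degrees of freedom, two-sided, Benjamini-Hochberg over 19083 genes, called under 0.05). The filter removed 11412 genes, and TMM factors were 0.956 to 1.08. Values ± are standard errors of log2 fold changes, and intervals are 95%. DESeq2 1.42.0, other scalings and filters, a block and left-out libraries were alternatives. On simulated counts for WT SuHx against WT control, the test called 30 of 50 genes raised 2-fold, 36 of 50 at a fold of 0.5, 49 of 50 raised 3-fold and 47 of 50 at a fold of 0.333, with 14 false calls among 18481 genes.

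Members and lists were chosen with earlier results of these data known. Values per library are given for called members with at least 5 CPM and groups that do not overlap (up to 12 a direction in SuHx comparisons, 6 in genotype comparisons). Outside genes are among the 4 of their list with the largest called change. Srsf3, Srsf7, Tra2b, Srsf2, Rbmx, Celf1, Nova1 and Wtap were added after their values were seen. Sequences are from RefSeq (GRCm38.p6).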

Additional observations from a re-analysis of the deposited data

Results flagged for a closer look

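In Mbnl1, Ddx17 and Wtap both SuHx libraries lay above both controls in WT and below both controls in Fpr2-KO. The share of all tested genes with this pattern was not counted, so it does not set these 3 apart as a group. The SuHx effect in Fpr2-KO minus that in WT, on the log2 scale, was -0.79 for Mbnl1 (a muscleblind splicing factor), -0.51 for Ddx17 (an RNA helicase) and -0.35 for Wtap (a subunit of the m6A methyltransferase complex). Wtap had 28.8 and 32.0 CPM in WT control, 33.7 and 36.2 in WT SuHx, 37.9 and 43.5 in Fpr2-KO control and 36.4 and 37.0 in Fpr2-KO SuHx. The edgeR interaction called none of the 3, with adjusted p of 0.118, 0.229 and 0.415. DESeq2 called Mbnl1, and edgeR called it without WT control library 2.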

How the results depend on the processing

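With 2 libraries a group, calls depend on single libraries. Leaving out each library in turn, the members called by edgeR ranged from 5 to 17 in WT SuHx, 3 to 22 in Fpr2-KO SuHx, 0 to 13 between control genotypes, 0 to 4 for the interaction and 14 to 27 for the average of genotypes, and stayed at 0 between SuHx genotypes. Leaving out library 1 of WT control together with library 2 of Fpr2-KO SuHx, Fpr2-KO SuHx had 7 and the control genotypes 0. DESeq2 called 8 members and 1787 genes between control genotypes, and 2 members and 512 genes for the interaction. Calls over all genes with libraries left out or with a block are given neither here nor above. The member counts under these settings therefore do not show a shift particular to the members. The cause of these shifts was not tested. No label says whether the column numbers pair libraries. Deviations from the group mean of libraries with the same number had correlations of -0.0234 to 0.0408. These were taken over all tested genes, many at low counts, so they cannot show that libraries are unpaired. With the column numbers as a replicate block, the calls were 10 in WT, 11 in Fpr2-KO and 22 for the average. They were 0 between control genotypes, 0 between SuHx genotypes and 0 for the interaction. For 54 values, those of called members in the comparisons that called them and the interactions of Mbnl1, Ddx17 and Wtap, recomputed under 15 alternatives, 657 kept their side of the threshold, 151 lost it, 2 gained it and 0 turned direction. Values outside these did turn: without WT control library 2 the WT changes, not called, of Srsf3, Srsf7, Tra2b, Rbmx and Srsf2 were 0.14, 0.09, 0.18, 0.20 and 0.01. In the simulated counts, changes of 2-fold were often missed. Far fewer genes were changed there than were called here, so that rate need not hold for the members. Most called members changed by less than 2-fold.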
